A study of Mus musculus with 6 samples.

Results

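The kinesin motor genes were read from 6 microarrays that covered the RNA of mouse embryonic stem (ES) cells. Members were taken as the probe sets whose only gene symbol began with Kif and a digit. A probe set is a group of short probes read together as 1 value for a transcript. This gave 99 of 45037 probe sets and 37 of 18193 named genes. Each gene was represented by its brightest probe set, taken as that of highest mean, and its other probe sets were compared with it. By known function 13 genes were mitotic kinesins, 15 were transport kinesins and 9 belonged to cilium and signalling kinesins.

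All arrays came from ES clones named A1, B3 and C6, grown undifferentiated with leukemia inhibitory factor. Every clone carried the human GTF2I coding sequence at the Rosa26 locus behind a Tet-off promoter, which tetracycline keeps silent, and was resistant to puromycin. Uninduced arrays (0 h) came from cells in tetracycline, and induced arrays from the same clones 24 h after its removal, with 3 arrays per group and 1 array per clone and state. GTF2I encodes TFII-I, a transcription factor gene of the Williams-Beuren syndrome region, and the question was which mouse genes differ once it is induced. The titles name GTF2I, but 1 characteristics field names GTF2IRD2, and the titles were followed. Loss of tetracycline and gain of the transgene product cannot be told apart, since no array of cells without the transgene was analysed here. Each clone is a single line, so differences between clones rest on 1 culture per state.

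Kinesins are motor proteins that use ATP to move along microtubules or to take microtubule ends apart. Mitotic kinesins push spindle poles apart, position chromosomes and build the midzone at which daughter cells separate, and dividing cells such as ES cells rely on them. Transport kinesins carry vesicles, organelles, RNA and ciliary components, and several of them are best known from neurons.

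Values are log2 intensities after robust multiarray averaging (RMA), so a difference of 1 is a doubling. Array medians lay between 5.06 and 5.11, lower quartiles between 3.66 and 3.73, and correlations between arrays between 0.9909 and 0.9962. Mean levels of the 8 ES cell markers lay between 12.49 and 12.53 in uninduced and between 12.38 and 12.61 in induced arrays, so the label held. Fibroblast and feeder markers averaged from 4.58 to 4.66 and from 4.59 to 4.69, and 2 of 10 had a mean of at least 6. Neuron markers averaged from 6.29 to 6.44 and from 6.27 to 6.44, with 6 of 10 at that level. The mouse Gtf2i gene, brightest probe set, differed between states by 0.15, 0.10 and -0.22 (clones A1, B3 and C6, the order of every such triplet). Its other probe sets were lower after induction in both B3 and C6. Among them 1460279_a_at differed by 0.23, -0.48 and -0.56 (limma within B3 and C6, adjusted p = 0.045). None of these values is a check of induction, because the transgene is human. Before any kinesin is considered, 1 clone stands apart. Among the 9561 genes with a mean of at least 6, 60.9% moved in A1 against both B3 and C6. Nothing in the labels or the array values checks the induction state of either A1 array independently. The paper's RT-PCR, a measure of transcript level, found more GTF2I transcript in A1 at 24 h than at 0 h. That measurement does not show which array carries which RNA. The states were kept as labelled, and exchanging those of A1 would turn the sign of every A1 difference. Each result is therefore given over all clones, for A1 beside the other clones, and without A1.

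The kinesin levels are shown first, gene by gene. Of the 37 genes, 25 had a mean of at least 6: 10 mitotic, 12 transport and 3 of the cilium and signalling class. Their means ran from 6.19 to 12.12. The other 12 ran from 2.67 to 5.57 and were Kif14, Kif15 and Kif2b among the mitotic genes, Kif1a, Kif5a and Kif21a among the transport genes, and Kif6, Kif9, Kif12, Kif26b, Kif27 and Kif28. Of these dim genes, 3 (Kif2b, Kif27 and Kif28) had a mean below the lower quartile of every array. Levels of different probe sets depend on their probes and are not ranked against each other.

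**Figure D1:**
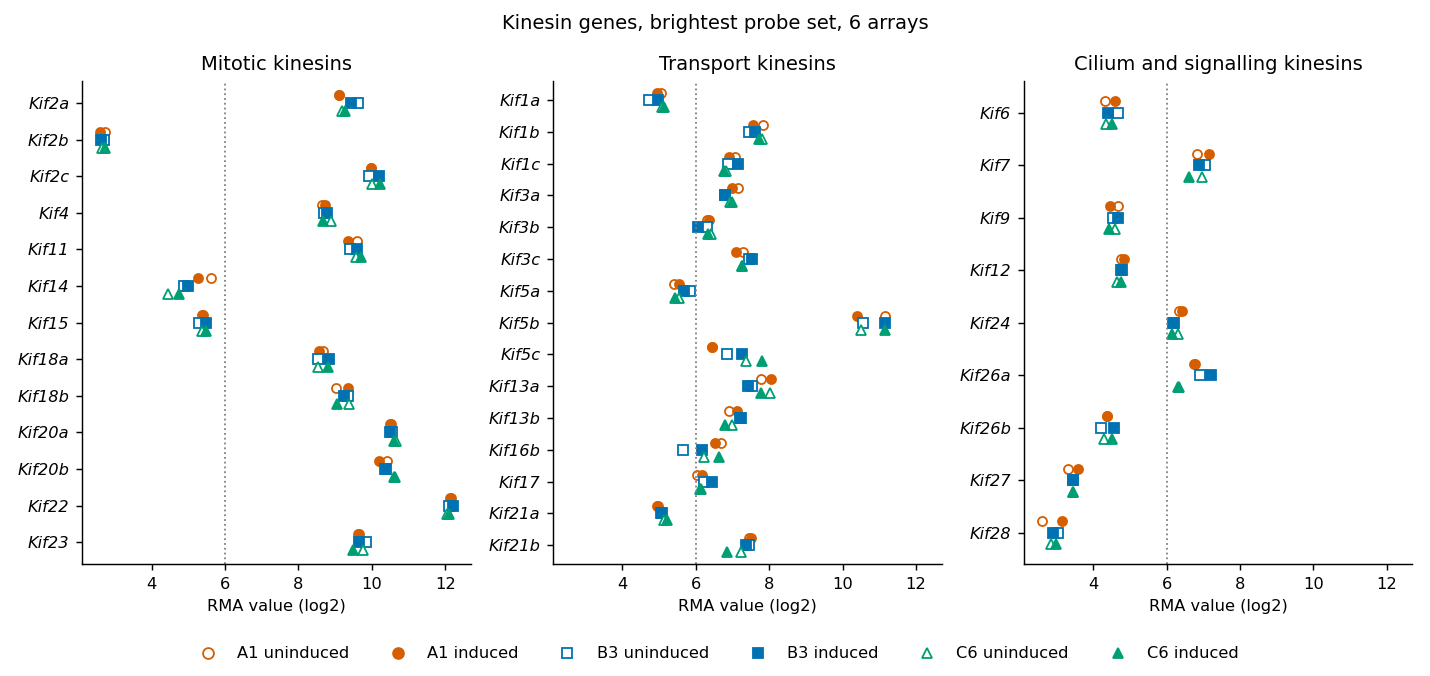
Levels of the 37 kinesin genes in every array, brightest probe set per gene, as RMA log2 values on the horizontal axis. Open symbols are uninduced and filled symbols induced arrays, colours and shapes mark the clones, and the dotted line marks 6; the widest ranges are those of Kif5c (1.38), Kif14 (1.14), Kif16b (1.02), Kif26a (0.91) and Kif5b (0.76).

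Over all 3 clones no kinesin passed the test of induction. The test was limma on all 6 arrays with Benjamini-Hochberg adjustment, called at 0.05. None of the 37 genes was called, and 0 had an unadjusted p under 0.05. The background was the same, with 0% of all 45037 probe sets called, 436 of them at an unadjusted p under 0.05, and none called by the methods' t-test, which had 867 at that unadjusted level. Kinesin differences ran from -0.14 to 0.28 with a median of 0.02. The medians were -0.01 in mitotic, 0.01 in transport and 0.06 in cilium and signalling kinesins, against -0.0019 over all genes. With the clone as a block 0 were called as well, and Kif5c, higher in all 3 clones, had a difference of 0.28 at an unadjusted p of 0.0498 (limma, adjusted p = 1.00). By its brightest probe set no kinesin had all induced arrays on one side of all uninduced arrays, where 3.26% of the 18193 genes did. Some dimmer probe sets of the kinesins did, such as Kif3b 1420987_at, Kif2a 1452499_a_at and Kif1a 1450108_at. These differed by -0.13, -0.24 and -0.24, lower after induction in every clone, and were not called. They are examples only. How many of the 62 other kinesin probe sets, or of all probe sets, had groups apart in this way was not counted. The median distance from a difference to the end of its 95% interval was 0.30 over the 25 brighter kinesins. The interval carries no adjustment for many tests, so changes of this size or smaller would typically not be called with these arrays.

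The clones moved differently. In A1 14 of the 25 brighter kinesins, or 56%, moved against both other clones, beside the 60.9% of all genes of that level. Of these 14, 8 were lower in A1 and higher in B3 and C6, and 6 were the reverse. By class it was 7 of 10 mitotic, 6 of 12 transport and 1 of 3 cilium and signalling genes. Across the 25 genes the differences correlated at r = -0.62 between A1 and B3, -0.71 between A1 and C6 and 0.80 between B3 and C6, and over the 9561 genes at -0.69, -0.76 and 0.69. These are descriptions over genes of the same arrays. All 3 clones agreed in sign for 2 of the 25 kinesins, Kif20a and Kif5c, beside 11.3% of all genes.

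**Figure D2:**
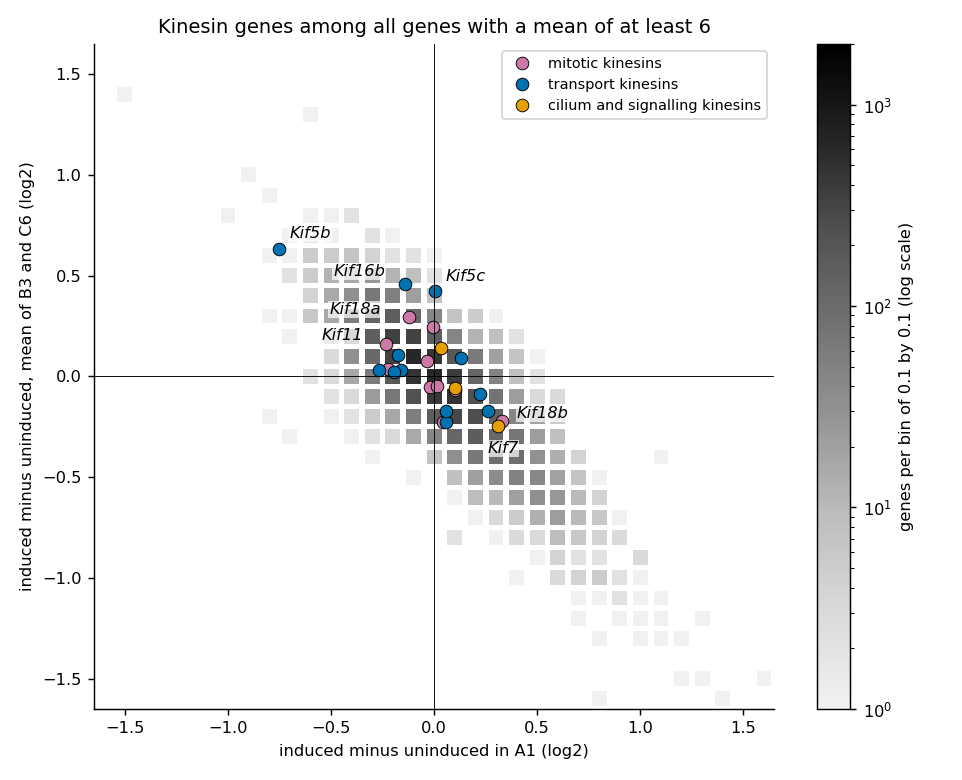
Induced minus uninduced difference in A1 (horizontal, log2) against the mean difference of B3 and C6 (vertical, log2) for kinesin genes with a mean of at least 6 (coloured points), over the density of all 9561 genes of that level (grey squares, log scale). Kinesins lie along the same falling diagonal as the other genes, with Kif5b at its upper left, at -0.75 in A1; 4 genes lie outside the axes.

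A1 has 1 pair of arrays, so the error of its comparison comes from the spread between B3 and C6, moderated by limma over all probe sets, and A1 was set apart after it was seen to run against the others. Set against B3 and C6, the induction difference of A1 was called for 1 of the 37 kinesins, Kif5b, beside 2.68% of the 18193 genes. At an unadjusted p under 0.05 stood 9 of the 37 kinesins and 3270 of the 18193 genes. Medians of this A1 difference were -0.11 over kinesins, -0.16 over mitotic, -0.19 over transport and 0.16 over cilium and signalling kinesins, and 0.0037 over all genes. Over the 10 brighter mitotic kinesins it was -0.04. Without A1, induced and uninduced arrays of B3 and C6 were compared with the clone as a block. That fit called 1 of 37 kinesins, Kif5b, beside 1.81% of the genes. It rests on the same B3 and C6 differences, and the same spread between them, as the A1 comparison. The call is therefore not independent of the one there. Medians there were 0.02 over kinesins, 0.04 over mitotic and 0.03 over transport kinesins, and -0.0052 over the 10 brighter mitotic ones. In these 4 arrays the states did not overlap for 7 of the 25 brighter kinesins (Kif5b, Kif7, Kif11, Kif18a, Kif18b, Kif23 and Kif2c), beside 41.5% of all genes of that level.

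Kif5b encodes the ubiquitous heavy chain of conventional kinesin, which hauls mitochondria, vesicles and messenger RNA. Its brightest probe set, 1418430_at, read 11.15, 10.54 and 10.49 before induction (A1, B3, C6), and 10.40, 11.16 and 11.15 after it. The level was high in uninduced A1 and in induced B3 and C6, and low in the other 3 arrays, with no array between. Over all clones the groups overlapped, at 10.73 ± 0.36 (SD, n = 3) uninduced and 10.90 ± 0.44 (SD, n = 3) induced, a difference of 0.17 (95% interval -0.41 to 0.75, limma adjusted p = 1.00). Within clones it was -0.75, 0.62 and 0.65. In B3 and C6 Kif5b rose 1.55-fold, by 0.63 ± 0.11 (SE) on the log2 scale (limma, adjusted p = 0.0227). In A1 it was 1.68-fold lower after induction. The difference between A1 and the other clones was -1.39 ± 0.18 (SE; limma, adjusted p = 0.00877).

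The call for Kif5b held for 1 of its other 5 probe sets in the A1 comparison and for none within B3 and C6. Of the 6, 1418427_at to 1418431_at share 1 source accession in the platform annotation, so they are not independent genes. The clone differences were -0.32, 0.32 and 0.42 for 1418427_at. They were -0.53, 0.53 and 0.27 for 1418431_at, which was called against the other clones at -0.94 (limma, adjusted p = 0.0432) but not within B3 and C6 (adjusted p = 0.112). Both ran the way of the brightest one. For 1418428_at they were -0.04, 0.28 and 0.24. The dim 1453524_at, with a mean of 4.96, gave -0.34, 0.30 and -0.15. In contrast 1418429_at, with a mean of 9.13, turned the other way at 0.29, -0.51 and -0.22. Averaging all 6 probe sets gave an A1 difference of -0.51 (limma, adjusted p = 0.121) and 0.23 within B3 and C6 (adjusted p = 0.236). Without the clone block the test within B3 and C6 gave an adjusted p of 0.328.

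**Figure D3:**
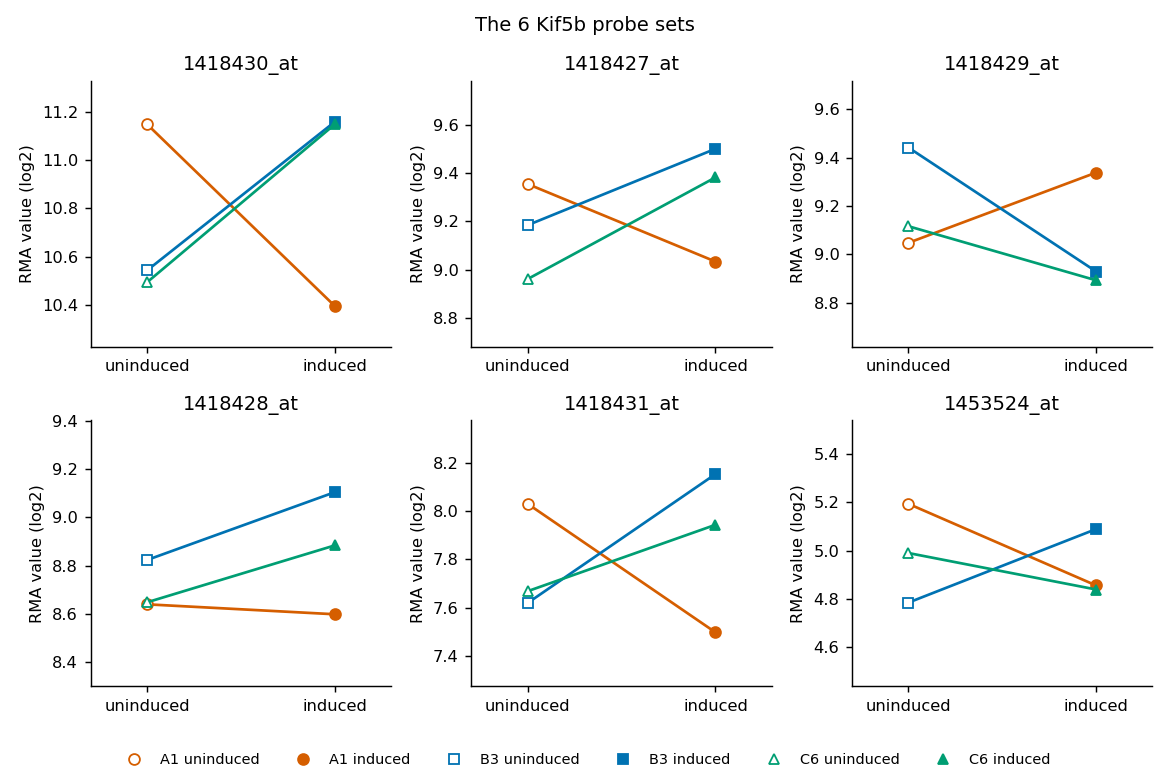
The 6 probe sets of Kif5b, each panel spanning the same range of log2 units, with 1 line per clone from its uninduced (open) to its induced (filled) array. In 4 panels A1 drops while B3 and C6 climb, in 1418429_at the lines cross the other way, and in the dim 1453524_at C6 runs with A1.

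Among the other transport kinesins, those with the widest spread were Kif5c and Kif16b. Kif5c, a second heavy chain of conventional kinesin best known from neurons, read 6.43, 6.86 and 7.37 uninduced, and 6.44, 7.26 and 7.81 induced. Its arrays ordered by clone, with both arrays of A1 below both of B3, and both of B3 below both of C6. The induction differences were 0.0047, 0.40 and 0.44. Within B3 and C6 it was 0.42 higher (limma, adjusted p = 0.0803), which missed the threshold. Kif16b moves early endosomes along microtubules. It read 6.68, 5.66 and 6.22 uninduced, and 6.54, 6.16 and 6.64 induced. B3 was the low clone in both states, and the differences were -0.14, 0.50 and 0.42. They averaged 0.46 in B3 and C6 (limma, adjusted p = 0.0624), and A1 stood at -0.60 from them (adjusted p = 0.13). Its next probe set, 1429062_at, with a mean of 5.17, differed by only 0.04 in B3 and C6 (adjusted p = 0.909). Kif16b and Kif5c passed 0.05 within B3 and C6 when only probe sets averaging at least 6 were tested (limma, adjusted p = 0.0268 and 0.0319). That filter raised the calls over all probe sets too, from 981 of 45037 to 1861 of 17168.

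A test of level between clones, with induction state as a covariate, was added after these values were seen. It called 1 of 37 kinesins, Kif5c, beside 1.67% of the genes, and 1 of 99 kinesin probe sets beside 1.13% of all probe sets. Kif5c averaged 6.44, 7.06 and 7.59 over the states, so that C6 held 2.23-fold more than A1 (limma F-test, adjusted p = 0.0435). The call was lost under quantile normalization and with a trend in the variance model. It was lost too among probe sets averaging at least 6 and over the mean of its 4 probe sets. Leaving out any single array of B3 or C6 also lost it, whereas more kinesins passed without either array of A1. Those fits leave 1 clone with a single array, and their shares over all genes were not compared. The other 3 probe sets of Kif5c were dim, with means of 4.21, 4.06 and 2.52. Kif26a, which lacks motor activity and acts in growth factor signalling, averaged 6.75, 7.06 and 6.33 (adjusted p = 0.114). Kif14, a motor of the last step of cell division, averaged 5.44, 4.94 and 4.61 (adjusted p = 0.148). Neither passed the test.

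The remaining transport kinesins were not called. Kif13a, which carries receptors from the Golgi network, had a mean of 7.76 and differences of 0.26, -0.11 and -0.23. Kif13b averaged 7.04 with 0.22, 0.02 and -0.19. Both relatives thus ran higher in A1 than in C6. The vesicle motors Kif1b, at a mean of 7.66, and Kif1c, at 6.93, differed by -0.27, 0.14 and -0.08 and by -0.18, 0.27 and -0.06. Kif3a and Kif3b are subunits of the kinesin that supplies cilia, and Kif3c is a relative of them. Kif3a averaged 6.94 with differences of -0.16, 0.0035 and 0.06. Kif3b averaged 6.29 with 0.06, -0.25 and -0.09. Kif3c averaged 7.32 with -0.19, 0.06 and -0.02. Of the other probe sets of Kif3b, 1420986_s_at, with a mean of 6.06, kept the sign of the brightest one in every clone. It differed by 0.51, -0.12 and -0.34 (A1 comparison 0.74). By contrast 1420987_at parted from the brightest one in A1, with differences of -0.14, -0.14 and -0.12. Kif17, a dendritic and ciliary motor, averaged 6.19 with 0.13, 0.20 and -0.02. Kif21b, known from neurons and immune cells, averaged 7.31 with 0.06, -0.07 and -0.39.

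No mitotic kinesin was called in any comparison by its brightest probe set. Kif11 slides antiparallel microtubules to drive the spindle poles apart. It read 9.58, 9.40 and 9.58 uninduced, and 9.35, 9.59 and 9.72 induced. A1 was lowest of the induced arrays, and the groups overlapped. The differences were -0.23, 0.19 and 0.14, and A1 stood at -0.39 from the other clones (95% interval -0.81 to 0.02, limma adjusted p = 0.319). Its other probe sets gave -0.35, -0.32 and 0.23 and -0.21, 0.01 and 0.37, so A1 was lower in all 3 probe sets and C6 higher in all 3, while B3 turned sign.

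Kif2a, a microtubule depolymerase of the spindle poles, read 9.10, 9.63 and 9.19 uninduced and 9.12, 9.44 and 9.28 induced. B3 was the high clone in both states. The differences were 0.01, -0.19 and 0.10. Kif20b, needed for the completion of cell division, read 10.41, 10.35 and 10.59 uninduced and 10.19, 10.39 and 10.62 induced. C6 was highest in both states. The differences were -0.23, 0.05 and 0.03, and A1 stood at -0.26 from the others (limma, adjusted p = 0.53).

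**Figure D4:**
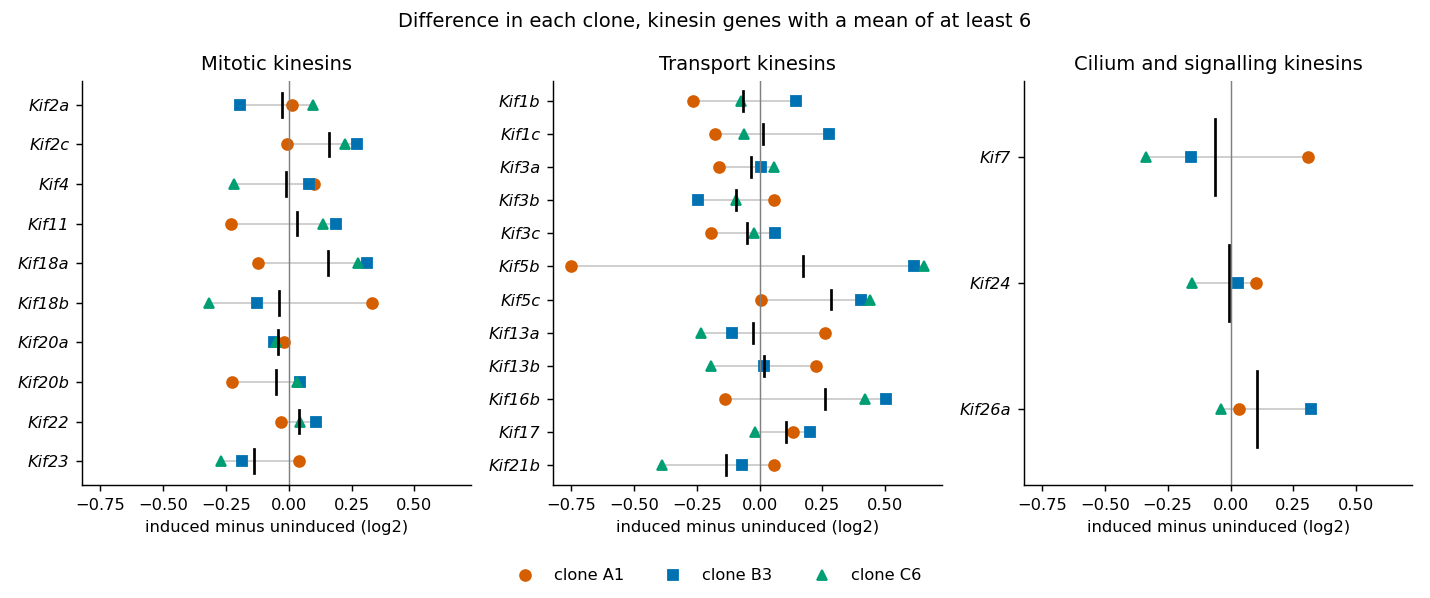
Induced minus uninduced difference in each clone for the 25 kinesin genes with a mean of at least 6, in log2 units. Coloured symbols are the clones, the black bar is their mean, and the grey line joins lowest and highest; Kif5b spans the widest range, from -0.75 in A1 to 0.65 in C6, and the bars stay between -0.14 and 0.28.

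Of the kinesins that limit microtubule length, Kif18a, which damps the motion of chromosomes, averaged 8.65 and differed by -0.12, 0.31 and 0.28. Kif18b, which trims astral microtubules, averaged 9.23 and ran the other way, at 0.33, -0.13 and -0.32. Their differences had opposite signs in every clone, and neither gene passed the test. The depolymerase Kif2c averaged 10.04 and differed by -0.0079, 0.27 and 0.22. Its bright probe sets 1449060_at, at -0.09, -0.20 and 0.01, and 1454221_a_at, at -0.23, -0.23 and 0.28, turned the other way in B3. The dim 1432392_at kept the signs of the brightest one. Among the motors of the spindle midzone, Kif23 averaged 9.67 and differed by 0.04, -0.19 and -0.27. Kif20a, which brings the chromosomal passenger complex to the midzone, averaged 10.55 and differed by -0.02, -0.06 and -0.05, close to 0 in every clone. The chromosome-bound motors Kif22 and Kif4 averaged 12.12 and 8.73. Their differences were -0.03, 0.11 and 0.05 and 0.10, 0.08 and -0.22. In the cilium and signalling class Kif7, a regulator of Hedgehog signalling, averaged 6.92 and differed by 0.31, -0.16 and -0.33. Kif24, which holds back cilium growth at the centriole, averaged 6.26 with 0.10, 0.03 and -0.15. Kif26a differed by 0.04, 0.32 and -0.04. Against B3 and C6, A1 stood at 0.56 for Kif7 and 0.55 for Kif18b (limma, adjusted p = 0.171 and 0.176).

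Probe sets of 1 gene often parted. Of the 99 kinesin probe sets 4, or 4.04%, were called in the A1 comparison beside 2.71% of all probe sets, and 3, or 3.03%, within B3 and C6 beside 2.18%. Besides Kif5b these were single probe sets of Kif2a and Kif13a. Kif2a probe set 1454107_a_at read 8.17, 8.73 and 8.49 uninduced and 8.50, 8.02 and 7.98 induced. Its differences were 0.33, -0.71 and -0.51, and it fell in B3 and C6 by 0.61 (limma, adjusted p = 0.0295), whereas the brightest Kif2a probe set differed there by -0.05. The dim Kif13a probe set 1447853_x_at, with a mean of 4.27, read 4.65, 3.88 and 3.97 uninduced and 4.22, 4.48 and 4.42 induced. It rose by 0.52 in B3 and C6 (limma, adjusted p = 0.045), opposite in sign to the brightest Kif13a probe set at -0.17. In the A1 comparison 17 of the 25 kinesins with several probe sets, or 68%, had at least 1 with the opposite sign to the brightest, beside 58.7% of 9010 genes. Among probe sets averaging at least 6 it was 6 of 11, or 54.5%, beside 48.6% of 3936 genes.

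What the mitotic kinesins share, apart from the rule, was sought in their promoters, after the expression values were known. Windows from 250 bases before to 50 after the annotated start were taken from RefSeq (GRCm38.p6) and held 31 of the 37 genes. Kif13b, Kif20a, Kif21b, Kif28, Kif5a and Kif5b were not matched. Of 8 short motifs searched on both strands, the hexamer TTTGAA, the core of the cell cycle gene homology region, stood in more of the mitotic than of the other kinesins. Its counts were 9 of 12 mitotic (75.0%), 1 of 11 transport (9.09%) and 2 of 8 cilium and signalling kinesins (25.0%), and in 17.9% of all 32851 windows. A kinesin counted if any of its windows held the motif (35 windows for the 31 genes), whereas the share of all windows is over single windows. For CCAAT the counts were 7 of 12, 3 of 11 and 4 of 8, beside 37.4% of all windows, and for GGGCGG they were 7, 9 and 5 beside 35.7%. Each of the others stood in at most 2 genes of a class: TATAAA (in 13.6% of all windows), TTCGAA (in 1.56%), TTTAAA (in 13.2%), CACGTG (in 7.15%) and TTTGGCGC (in 0.514%). In 7 of the 9 mitotic genes a TTTGAA began within 20 bases of the start, and these sites are printed along the gene strand because they lie so near the start, with the hexamer (TTTGAA, or TTCAAA where it lies on the other strand) in capitals.
Kif11: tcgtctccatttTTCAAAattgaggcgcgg
Kif15: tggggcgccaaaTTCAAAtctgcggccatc
Kif22: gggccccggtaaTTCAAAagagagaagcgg
Kif18b: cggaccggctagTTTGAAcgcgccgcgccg
Kif20b: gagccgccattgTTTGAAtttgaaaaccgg
Kif23: ctgattggcctgTTTGAAatgcgccgggcg
Kif4: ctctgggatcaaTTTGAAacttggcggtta
The Kif11 site lies at chr19:37376351-37376380 on the plus strand and the hexamer begins 19 bases before the start. The Kif15 site, at chr9:122951050-122951079, plus strand, also begins 19 bases before it. The Kif22 site at chr7:127042420-127042449, minus strand, begins 17 bases before it. The other 4 begin just after the start: Kif18b by 4 bases (chr11:102925104-102925133, minus strand), Kif20b by 8 (chr19:34922353-34922382, plus strand), Kif23 by 3 (chr9:61946780-61946809, minus strand) and Kif4 by 20 (chrX:100626072-100626101, plus strand). In Kif20b a second TTTGAA follows the first directly, 14 bases after the start, and is left in lower case above. Kif14 and Kif2c held the hexamer only farther upstream. How often all windows hold it within 20 bases of the start was not counted. A match is a description of letters and not a bound site, and no gene printed passed a test of induction by its brightest probe set. By the brightest probe set, differences of Kif11, Kif15, Kif20b and Kif22 were below 0 in A1 and above 0 in B3 and C6. Those of Kif18b and Kif23 were the reverse, and Kif4, at 0.10, 0.08 and -0.22, did neither. Other probe sets of Kif11, Kif20b and Kif22 did not all follow. In A1 46.1% of all genes, and 60.9% of those with a mean of at least 6, moved against both other clones.

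**Figure D5:**
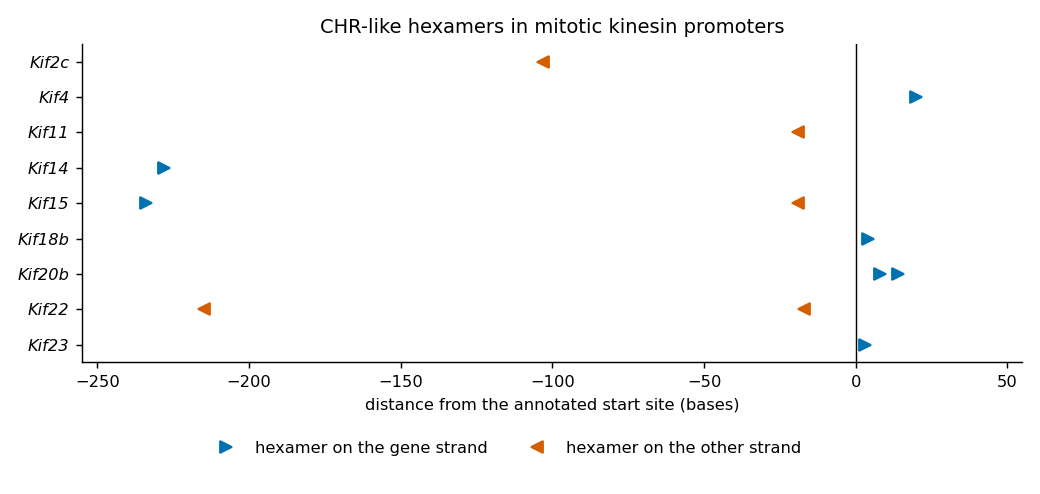
Position of each TTTGAA hexamer in the 9 mitotic kinesin promoters that hold one, as bases from the annotated start (horizontal axis). Blue arrowheads are on the gene strand and orange ones on the other strand; 7 genes have one within 20 bases of the start.

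Genes that work with kinesins were read from lists of known partners, and 6 more motors lie outside the name rule. Kifc1, a minus-end-directed motor that focuses spindle poles, read 7.83, 8.89 and 8.88 uninduced and 8.71, 7.64 and 8.05 induced. The difference was 0.88, -1.26 and -0.84, and it fell 2.06-fold in B3 and C6 (limma, adjusted p = 0.0079). A1 stood at 1.93 from the other clones (adjusted p = 0.00479). Kifc1 was thus opposite in sign to Kif5b and Kif11 in every clone. Of the 6 motors it alone was called in either comparison. Kifc3 and Cenpe stood in A1 at 0.51 and -0.36 from the other clones (adjusted p = 0.193 and 0.373).

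Shares called over all genes were 2.68% in the A1 comparison and 1.81% within B3 and C6. Of 14 measured light chains, adaptors and cargo links, 2 had an induction difference called as higher in A1 than in the other clones, and none as lower. These were Mapk8ip1 and Mapk8ip3, scaffolds that tie kinesin to the JNK pathway, at 1.35 and 1.08 (limma, adjusted p = 0.0252 and 0.0273). Within B3 and C6 Mapk8ip1 fell by 0.68 (adjusted p = 0.045). Rhot2, a mitochondrial link to kinesin, stood at 0.59 (adjusted p = 0.14). Of 19 mitotic partners and regulators 1 was called, Foxm1, a transcription factor of mitotic genes, at 1.08 in the A1 comparison (adjusted p = 0.0206) and -0.54 within B3 and C6 (adjusted p = 0.0392). Plk1 and Incenp stood at 0.76 and -0.67 (adjusted p = 0.0688 and 0.0951). Of 19 dynein and dynactin genes 1 was called, the adaptor Bicd2, at -0.87 (adjusted p = 0.0441) and 0.54 within B3 and C6 (adjusted p = 0.0403), the direction of Kif5b. Dynlt3 and Pafah1b1 stood at -0.82 and 0.66 (adjusted p = 0.0624 and 0.0992). None of the 12 tubulins was called, and Tuba1a, Tubb4b and Tubb3 stood at -0.67, 0.61 and 0.30 (adjusted p = 0.0955, 0.131 and 0.512).

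Markers of other cells were read beside these values. Of the 8 ES cell markers, Esrrb was called at 1.02 in the A1 comparison (limma, adjusted p = 0.0347), where 4 stood above and 4 below 0. None was called within B3 and C6, where 3 were higher and 5 lower. Of the 10 neuron markers, 5 were higher and 5 lower within B3 and C6, with a median of 0.02, and 1 was called, Syn1, which fell by 0.59 (adjusted p = 0.0278). None of the 10 fibroblast and feeder markers or the 8 motile cilium markers was called. Their part in the kinesin values was not tested, and fewer cells of a type cannot be told apart from less RNA per cell.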

How the data were processed

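Total RNA of each culture was hybridized to an Affymetrix whole-genome mouse array. The deposited values were log2 intensities that the authors made by RMA in Bioconductor (affy and RMA, without versions, in the submitters' processing notes), and they were used unaltered. Of 45101 rows, 64 controls were left out. The platform annotation listed 1 symbol for 34945 of the 45037 probe sets, several for 932 and none for 9160. A probe set naming Kif27 with another gene was left out.

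Tests were two-sided and used limma 3.58.1 in R 4.3.3 (lmFit, eBayes) on all 45037 probe sets, adjusted by Benjamini-Hochberg and called at 0.05, in place of the methods' t-test because groups had 3 arrays. The fits were induced against uninduced without a block, the difference of A1 against those of B3 and C6, and induced against uninduced within B3 and C6 with the clone as a block. The code was tested on simulated data. Replicate numbers mark clones and so pair the arrays, and deviations of a clone's arrays correlated at r = 0.19, 0.53 and 0.31 for A1, B3 and C6.

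Values in every array were given for Kif5b, Kif11, called members and the 3 members of widest range among mitotic and among transport genes with a mean of at least 6, and related lists by counts and the 3 smallest p of the A1 comparison. Called probe sets and Kifc1 were added in full after their values were seen. The members, lists and comparisons were chosen with earlier results of these data known. Promoter windows were searched for exact letters. Alternatives covered the block, test, variance model, array weights, normalization, centring, filters, probe sets per gene, threshold and leaving out arrays or clones. The labels call the arrays biological replicates, 1 per clone and state, and their number limits the precision.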

Additional observations from a re-analysis of the deposited data

Results flagged for a closer look

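In 4 kinesin probe sets the induction difference of A1 was called as different from that of B3 and C6 (limma, adjusted over all probe sets). A1 has 1 pair of arrays, its error is taken from the spread between B3 and C6, and the contrast was chosen after A1 was seen to run against them. Kif5b 1418430_at stood at -1.387 (adjusted p = 0.00877) and Kif5b 1418431_at at -0.9356 (adjusted p = 0.0432). Kif13a 1447853_x_at, with a mean of 4.27, stood at -0.9601 (adjusted p = 0.0335) and Kif2a 1454107_a_at at 0.9451 (adjusted p = 0.0379). For Kif13a and Kif2a the brightest probe set gave 0.43 and 0.06 and was not called. Groups of 3 arrays are too small for a test of single outlying arrays.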

How the results depend on the processing

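Induced against uninduced over all clones, 0 kinesins were called in every alternative, the replicate block included, except without both A1 arrays and with the block, where Kif5b alone was called, so that leaving out arrays or clones gave from 0 to 1. The A1 comparison called 1 kinesin, 2 among probe sets averaging at least 6 (Kif16b, adjusted p = 0.0467, and Kif5b) and 0 over the mean of all probe sets of a gene. Within B3 and C6 the count of 1 became 3 (Kif5b, Kif5c and Kif16b) among probe sets averaging at least 6, under quantile normalization, with a variance trend and at a threshold of 0.10, and 0 without the replicate block and over the mean of all probe sets. Over all 45037 probe sets those comparisons called 1219 and 981. These became 2355 and 1861 of the 17168 with a mean of at least 6, and 458 and 207 of the 18193 brightest per gene. The second comparison gave 0 without the block (limma, 3526 at an unadjusted p under 0.05, smallest adjusted p 0.0536). The level between clones, chosen after the data were seen with its alternatives, called 1 kinesin, 0 with a mean of at least 6, under quantile normalization, with a variance trend and over the mean of all probe sets, and from 0 to 5 without 1 array: 0 without any array of B3 or C6, and 5 without either array of A1. The 17 kinesins with a probe set opposite to the brightest became 6 with a mean of at least 6. Single brighter kinesins were followed in the 3 comparisons, not counting the levels between clones. Of their induction differences 1037 were counted as unchanged, 10 moved past the threshold and 3 (all Kif5b) fell short of it. A sign change was counted only if either value was past the threshold or at an unadjusted p under 0.05, and there was none. Differences that changed sign without meeting this rule stand among the 1037. Of the class medians 10 moved by more than the spread between clones and 116 did not. Among them, with a mean of at least 6 the mitotic median went from -0.16 to -0.04 in the A1 comparison and from 0.04 to -0.0052 within B3 and C6, and over the mean of all probe sets the transport median went from -0.19 to -0.02 in the A1 comparison. For the moved counts and medians the cause was not tested. Among the 25 brighter kinesins the median distance to the end of the 95% interval was 0.42 in the A1 comparison and 0.24 within B3 and C6.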
